A study of Mus musculus with 10 samples.

Results

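Genes of Rab GTPases were compared between GUCY2C hi cells of the mouse small intestine and their GUCY2C med counterparts. They were chosen by name, as the protein-coding genes whose symbol is Rab and a number, with or without a closing letter, and no measured value entered the choice. The rule found 59 genes among the 54532 listed, and 56 of them passed the filter on low counts and were tested.

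Rab proteins are small GTPases that give each membrane compartment its identity. Bound to GTP and anchored by lipid groups, a Rab protein recruits effectors that move, tether and fuse vesicles, and exchange factors and GTPase-activating proteins turn it on and off. In enteroendocrine cells, hormones leave by regulated exocytosis of dense-core granules, in which Rab3 and Rab27 proteins act. Absorptive enterocytes rely on Rab8, Rab11 and their partners to deliver brush border proteins to the apical surface.

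The cells came from 5 litter-matched Gucy2c-GFP mice on the outbred CD1/ICR background, 10 weeks old, with no treatment named in the labels. All animals carry a transgene in which the Gucy2c promoter drives GFP, so cells were sorted by reporter fluorescence and not by GUCY2C protein, and there was no group without the transgene. From the epithelium of each mouse, 20000 cells with high GFP (GUCY2C hi) and 20000 with medium GFP (GUCY2C med, the bulk epithelium) gave 1 RNA-sequencing library each, 10 libraries in all. The libraries bear the numbers 2, 7, 12, 14 and 15, taken as mouse numbers, and values below follow that order.

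Between 10903958 and 15307932 reads were counted on genes in a library. The labels name no cell type. Of 20 enteroendocrine markers, 20 were called higher in GUCY2C hi cells. Their summed level was 36299 to 141494 cpm (counts scaled to library size with TMM factors) against 127 to 411 cpm in GUCY2C med cells. The GUCY2C hi libraries of mice 12 and 15 stood apart: 18 enterocyte markers summed to 32320 and 33303 cpm there and to at most 5173 cpm in the other GUCY2C hi libraries, against 60555 to 81265 cpm in GUCY2C med cells, and 6 of the 18 were called lower by edgeR and 16 by DESeq2. Of 10 proliferation markers 8 were called lower, with sums of 82.7 to 216 cpm against 287 to 622 cpm. Of 9 mesenchyme and endothelium markers 3 were tested and all 3, Vim, Pecam1 and Col1a2, were called higher by edgeR, with sums over the list of 25.6 to 231 cpm against 0.803 to 3.08 cpm. Vim alone made up 24.4 to 229 cpm of the GUCY2C hi sums, while the 6 genes not tested, Col1a1, Col3a1, Acta2, Pdgfra, Kdr and Cdh5, were at most at 0.374 cpm in any library. T cell markers, 0 of 8 called by edgeR, DESeq2 or limma-voom and 0 at an unadjusted edgeR p under 0.05, summed to 254 and 214 cpm in the GUCY2C hi libraries of mice 12 and 15, to 24.6 to 60.5 cpm in the other GUCY2C hi libraries and to 30.2 to 168 cpm in GUCY2C med libraries. Of 8 goblet cell markers 0 were called by edgeR and 1 was higher by DESeq2. They summed to 23486 cpm in the GUCY2C hi library of mouse 2 and to 3060 to 9830 cpm in the other GUCY2C hi libraries. In GUCY2C med libraries the sums were 4922 to 13118 cpm. Paneth cell markers, 0 of 7 called by edgeR, summed to 45665 and 26851 cpm in the GUCY2C hi libraries of mice 2 and 14. Other GUCY2C hi libraries held at most 10361.5 cpm and GUCY2C med libraries 6539 to 15358 cpm. Tuft cell markers, 1 of 7 called higher by edgeR, summed to 28.4 to 41.2 cpm against 8.43 to 23.1 cpm. Stem cell markers, 1 of 8 called higher, summed to 331 to 1115 cpm against 909 to 1277 cpm. Hepatocyte genes, 3 of 7 called higher and 1 lower, summed to 199 to 315 cpm against 329 to 492 cpm. The part of proliferation, mesenchyme, endothelium, T cell, goblet, Paneth, tuft, stem cell and hepatocyte genes in the Rab results was not tested. A list of 18 forebrain neuron genes ranged from 38.4 to 2881 cpm in sum, with overlap between the groups. It includes Snap25, Syt1 and Syn1, and Syn1 is also the authors' marker of neuropod cells. None of these 18 genes was called by edgeR, DESeq2 or limma-voom, and 1 had an unadjusted edgeR p under 0.05. These are bulk libraries, in which fewer cells of a type and less RNA per cell cannot be told apart.

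Of the 56 Rab genes tested, 13 (23.2%) were called higher in GUCY2C hi cells and 4 (7.14%) were called lower, by edgeR's quasi-likelihood test at an adjusted p under 0.01 over all 15703 genes tested. Among all genes, 13.9% were called higher and 8.79% lower. The median log2 fold change was 0.22 over the Rab genes and 0.09 over all genes. The higher genes were Rab3b, Rab37, Rab39, Rab36, Rab3c, Rab3d, Rab23, Rab39b, Rab15, Rab12, Rab31, Rab27a and Rab33b. The lower genes were Rab20, Rab8a, Rab17 and Rab29. In all 17, which were called from these same libraries, the groups did not overlap, so that every mouse necessarily showed the same direction. Counting every tested member whose groups did not overlap, 15 lay above and 7 below in the GUCY2C hi group, where 16.7% and 13.2% of all genes did the same.

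**Figure D1:**
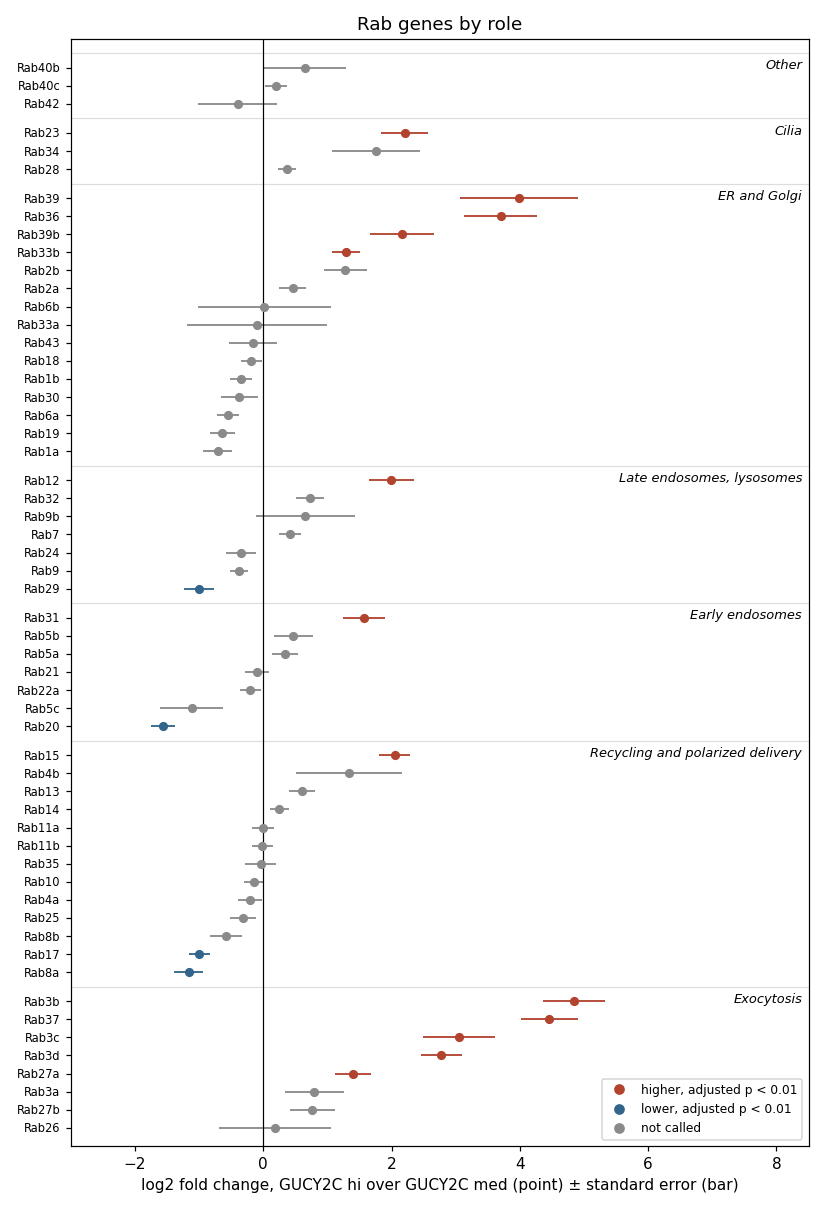
Log2 fold change of the 56 tested Rab genes, GUCY2C hi over GUCY2C med, with the point for the estimate and the bar for its standard error, grouped by the role of the protein. The 13 genes called higher reach 4.84 (Rab3b), the 4 called lower reach −1.56 (Rab20), and 35 of the 39 grey, uncalled genes lie within 2-fold.

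Without scaling factors other than library size, 16 Rab genes were higher and 3 lower, but the median of all genes then moved from 0.09 to 0.39 and the share of calls in the higher direction rose from 61.3% to 83.9%. With the mouse number as a block in edgeR, 8 were higher and 2 lower, because Rab27a, Rab29, Rab31, Rab39, Rab39b, Rab3c and Rab8a missed the threshold. The block in limma-voom kept 16 of the 17 calls, all but Rab29, and added Rab1a as lower. Without both libraries of mice 12 and 15, and so with fewer libraries per group, 10 were higher and 3 lower. Rab29, Rab39b and Rab3c missed the threshold, and Rab39 was not tested. All called genes tested there had larger changes than in the main fit, such as a log2 fold change of 5.68 for Rab3b and −1.505 for Rab8a. The GUCY2C hi library of mouse 15, with the lowest enteroendocrine sum, had the lowest GUCY2C hi value for 10 of the 13 higher genes, and that of mouse 12 for 2 more. What part enterocyte RNA in these libraries has in the results was not tested.

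**Figure D2:**
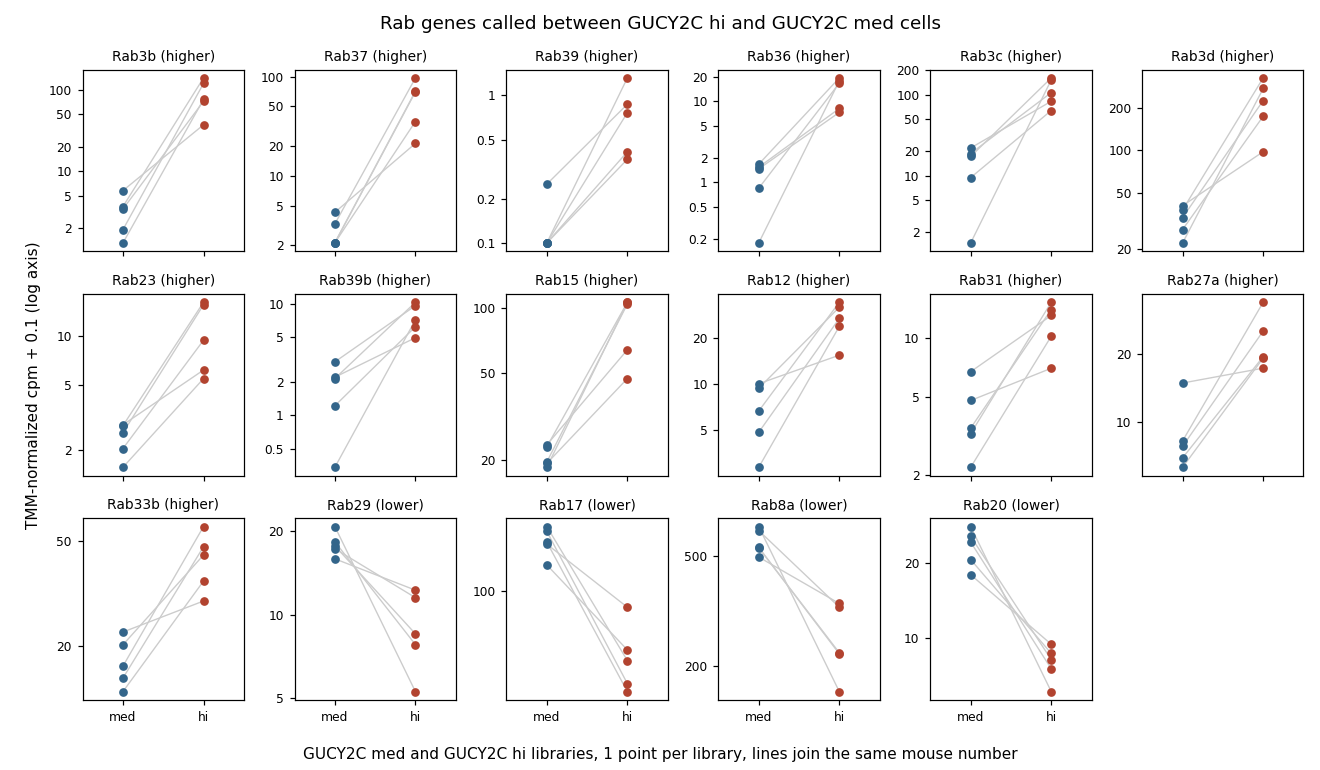
TMM-normalized cpm plus 0.1, on log axes, of the 17 called Rab genes in the GUCY2C med (blue) and GUCY2C hi (red) libraries, with 1 point per library and lines between libraries of the same mouse number. The groups do not overlap in any panel, and the vertical scale differs between panels.

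The Rab proteins of exocytosis held the most calls, with 5 of 8 genes higher and a median log2 fold change of 2.09, and all 8 estimates were above 0. Rab3 proteins sit on synaptic and dense-core vesicles. Before their values, a stretch of the coding sequence of each Rab3 gene is given to show how far reads of these close relatives can be told apart. Each has 69 bases of the GENCODE vM1 coding sequence, and capitals mark the 21 bases that encode the conserved GTP-binding element in which Rab proteins are most alike.
Rab3a: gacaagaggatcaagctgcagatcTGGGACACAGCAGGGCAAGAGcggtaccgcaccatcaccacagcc
Rab3b: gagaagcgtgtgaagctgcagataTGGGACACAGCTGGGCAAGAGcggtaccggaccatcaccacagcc
Rab3c: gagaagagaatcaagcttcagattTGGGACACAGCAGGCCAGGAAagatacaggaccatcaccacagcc
Rab3d: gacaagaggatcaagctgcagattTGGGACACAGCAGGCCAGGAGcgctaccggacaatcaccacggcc
Even here the 4 genes differed from each other at 7 to 13 of the 69 bases, with Rab3a and Rab3d the closest. The element was found in the coding sequence of 49 of the 59 members. Among all 1711 pairs of members, 0 pairs of transcripts shared an exact run of 50 bases, and the longest run was 43 bases, between Rab3c and Rab8b.

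Rab3b (ENSMUSG00000003411, chr4:108879063-108943324, GRCm38) had the largest change of the family. In the order of mice 2, 7, 12, 14 and 15, it measured 139.7, 76.1, 72.0, 119 and 36.97 cpm in GUCY2C hi libraries and 3.56, 1.204, 3.31, 1.80 and 5.65 cpm in GUCY2C med libraries. The lowest GUCY2C hi library lay well above the highest GUCY2C med library. Mean levels were 88.8 ± 40.8 and 3.11 ± 1.73 cpm (SD over 5 libraries), and the log2 fold change was 4.84 ± 0.48 (SE, edgeR adjusted p = 3.86e-05). Rab3d (ENSMUSG00000019066, chr9:21907491-21918192), found on zymogen and other large secretory granules, measured 274, 225, 174, 325 and 97.3 cpm in GUCY2C hi and 21.8, 33.1, 27.2, 37.5 and 40.2 cpm in GUCY2C med libraries. All GUCY2C med values were close together, and the GUCY2C hi library of mouse 15 was the nearest to them. The log2 fold change of Rab3d was 2.77 ± 0.32 (edgeR adjusted p = 9.54e-05).

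Rab3c (ENSMUSG00000021700, chr13:110054187-110280996), a mostly neuronal and neuroendocrine form, measured 106, 152, 82.9, 161 and 63.7 cpm in GUCY2C hi libraries. In GUCY2C med libraries it measured 18.6, 1.36, 21.8, 17.1 and 9.33 cpm, with the library of mouse 7 far below the rest. The log2 fold change was 3.05 ± 0.57 (edgeR adjusted p = 0.00195). It was 3.21 when the mouse was a block (adjusted p = 0.0115) and 3.50 without mice 12 and 15 (adjusted p = 0.0113). Rab3a, the main synaptic vesicle Rab, was not called by edgeR. It measured 61.4, 92.7, 73.4, 59.2 and 156 cpm in GUCY2C hi and 67.9, 10.2, 82.3, 58.9 and 36.1 cpm in GUCY2C med libraries, and the groups overlapped (log2 fold change 0.79, edgeR adjusted p = 0.203).

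Per length, levels are in FPKM (reads scaled by gene length and depth, without TMM factors). Rab3 RNA as a whole summed to 320 ± 63.9 FPKM in the GUCY2C hi group and 61.7 ± 24.2 FPKM in the GUCY2C med group (SD, n = 5). Rab3a made up 28.6% ± 17.6 of that sum in the GUCY2C hi group and 60.0% ± 18.1 in the other, with single libraries from 14.4% to 58.1% and from 31.9% to 75.0%. Rab3b made up 20.1% ± 6.72 and 3.28% ± 1.86, and its lowest share in GUCY2C hi libraries, 10.8%, was above its highest in GUCY2C med libraries, 6.44%. The share of Rab3c was 12.3% ± 3.04 against 5.72% ± 2.53. Rab3d made up 39.0% ± 10.0 and 31.0% ± 20.2, and the groups overlapped. Within each group the Rab3a share was lowest in the libraries lowest in the forebrain neuron genes. These were the GUCY2C hi libraries of mice 2 and 14 (16.2% and 14.4%) and the GUCY2C med library of mouse 7 (31.9%). In the latter Rab3d led with 63.6%. What part RNA of the listed forebrain neuron genes has in the shares was not tested. In cpm per kilobase of the listed gene length, the Rab3c share was 7.29% and 3.08%.

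**Figure D3:**
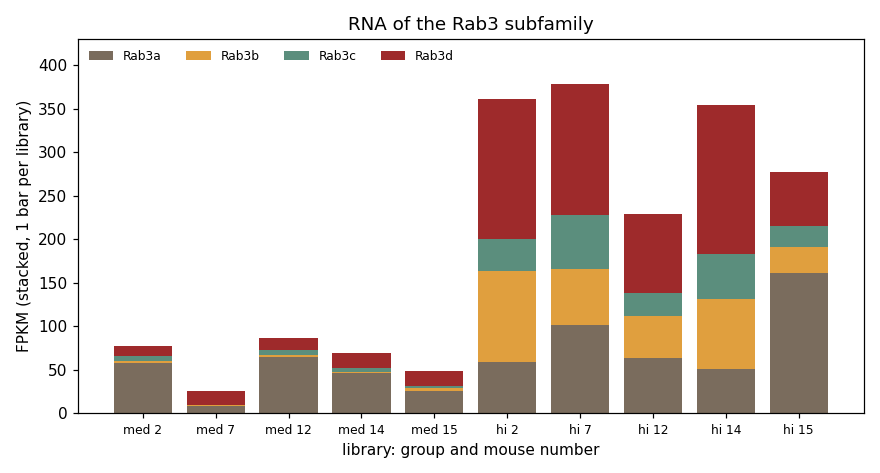
Stacked FPKM of Rab3a, Rab3b, Rab3c and Rab3d, 1 bar per library, GUCY2C med on the left and GUCY2C hi on the right. The sums run from 26.1 to 86.3 FPKM in GUCY2C med and from 229 to 378 FPKM in GUCY2C hi libraries, with Rab3b almost invisible on the left.

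Rab37 (ENSMUSG00000020732, chr11:115091431-115162236), a Rab of secretory granules in mast cells and pancreatic islets, measured 96.9, 70.2, 35.2, 71.2 and 21.2 cpm in GUCY2C hi libraries. In GUCY2C med libraries it measured 3.18, 2.01, 2.02, 2.03 and 4.19 cpm, and every mouse had the higher value in GUCY2C hi cells. Its log2 fold change was 4.46 ± 0.44 (edgeR adjusted p = 3.61e-05). Rab27a (ENSMUSG00000032202, chr9:73044854-73097629), which docks secretory granules at the plasma membrane, measured 34.0, 25.3, 19.2, 19.4 and 17.3 cpm in GUCY2C hi and 8.15, 7.71, 6.19, 6.83 and 14.8 cpm in GUCY2C med libraries. The groups nearly met in mouse 15, where the GUCY2C med value was the highest of its group. The log2 fold change of Rab27a was 1.40 ± 0.28 (edgeR adjusted p = 0.00309, and 0.0109 with the mouse as a block).

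Its relative Rab27b measured 76.0, 30.1, 24.2, 21.97 and 29.0 cpm in GUCY2C hi and 21.5, 24.7, 13.8, 17.7 and 29.3 cpm in GUCY2C med libraries. The groups overlapped, and only the GUCY2C hi library of mouse 2 lay far above the rest (log2 fold change 0.76, edgeR adjusted p = 0.108). That library also had the highest goblet sum (23486 cpm) and Paneth sum (45665 cpm). The GUCY2C hi library of mouse 14, next in Paneth sum (26851 cpm), had the lowest Rab27b of its group. What part such cells have was not tested. Rab26, a Rab of secretory granules and synaptic vesicles, had a log2 fold change of 0.18 (edgeR adjusted p = 0.908) and is described with the forebrain neuron genes further on.

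In the list for recycling and for apical or basolateral delivery, 1 of 13 genes was higher and 2 were lower, and the median log2 fold change was −0.04. Rab15 (ENSMUSG00000021062, chr12:76797960-76822908), which acts on recycling endosomes and is known mainly from neurons, was the higher one. It measured 106, 106, 64.0, 104 and 47.2 cpm in GUCY2C hi and 22.8, 18.4, 23.3, 19.4 and 19.2 cpm in GUCY2C med libraries. The GUCY2C med values were nearly equal, and the GUCY2C hi libraries of mice 12 and 15 were the lowest of their group (log2 fold change 2.05 ± 0.24, edgeR adjusted p = 1.07e-04). The whole gene overlaps Fntb on the opposite strand, and whether counting used the strand is not given in the sources used here. Mean counts were 755 for Rab15 and 83.0 for Fntb.

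Rab8a (ENSMUSG00000003037, chr8:72161200-72183904), which directs vesicles to the apical membrane of enterocytes, was lower. It measured 221, 161, 336, 223 and 326 cpm in GUCY2C hi and 537, 640.2, 496, 537 and 619 cpm in GUCY2C med libraries. Among GUCY2C hi libraries those of mice 12 and 15, which held the most enterocyte RNA, had the most Rab8a. The log2 fold change was −1.16 ± 0.23 (edgeR adjusted p = 0.0025). It was −1.21 with the mouse as a block (adjusted p = 0.0107), and the adjusted p was 0.0114 once the GUCY2C hi library of mouse 2 was left out and 0.0107 without the GUCY2C med library of mouse 15.

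Rab17 (ENSMUSG00000026304, chr1:90958133-90969661), an epithelial Rab of transcytosis and apical recycling, measured 57.1, 54.4, 90.5, 65.6 and 70.0 cpm in GUCY2C hi and 143, 134, 133, 147 and 117 cpm in GUCY2C med libraries. Every GUCY2C hi value was under every GUCY2C med value (log2 fold change −0.998 ± 0.17, edgeR adjusted p = 0.00108). The other 10 genes of the list were not called by edgeR, and DESeq2 called 1 of them, Rab13, higher. Rab11a and Rab11b, the general recycling Rabs, had log2 fold changes of −0.01 and −0.02 with standard errors of 0.17 and 0.16. Rab25, the epithelial relative of Rab11, was at −0.31, Rab10 at −0.14, Rab4a at −0.21, Rab35 at −0.04, Rab14 at 0.25 and Rab8b at −0.58. Rab13, a Rab of tight junctions, was at 0.60 (edgeR adjusted p = 0.0361), and its groups did not overlap. Rab4b reached 1.33 but measured only 0.202, 0.301, 0.606, 0.540 and 0.441 cpm in GUCY2C hi and 0, 0.482, 0.216, 0 and 0.0856 cpm in GUCY2C med libraries, with overlap and an adjusted p of 0.228 by edgeR.

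Among Rabs of early endosomes, 1 of 7 genes was higher and 1 lower, with a median log2 fold change of −0.10. Rab20 (ENSMUSG00000031504, chr8:11453518-11478710), which acts on endosomes and phagosomes, had the largest drop of the family. It measured 8.07, 5.97, 8.55, 7.40 and 9.32 cpm in GUCY2C hi and 25.6, 28.02, 20.6, 24.3 and 17.9 cpm in GUCY2C med libraries. The spread within each group was small beside the distance between them (log2 fold change −1.56 ± 0.19, edgeR adjusted p = 1.49e-04). Rab31 (ENSMUSG00000056515, chr17:65651729-65772752), which links the trans-Golgi network to endosomes, measured 13.0, 13.9, 10.1, 15.2 and 6.93 cpm in GUCY2C hi and 6.65, 3.37, 2.09, 3.15 and 4.71 cpm in GUCY2C med libraries. The lowest GUCY2C hi value, in mouse 15, was just above the highest GUCY2C med value, in mouse 2. Its log2 fold change was 1.57 ± 0.33 (edgeR adjusted p = 0.00396). The call was lost with the mouse as a block (adjusted p = 0.0126) and without the GUCY2C hi library of mouse 7 (0.0110) or 14 (0.0112) or the GUCY2C med library of mouse 14 (0.0123).

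Rab5 proteins, which drive fusion of early endosomes, were not called by edgeR. Rab5a was at a log2 fold change of 0.34 and Rab5b at 0.47. Rab5c measured 7.67, 12.4, 29.5, 11.9 and 35.8 cpm in GUCY2C hi and 46.5, 11.8, 39.5, 47.5 and 66.2 cpm in GUCY2C med libraries, and the groups overlapped only through the GUCY2C med library of mouse 7. Its log2 fold change was −1.12 ± 0.49 (edgeR adjusted p = 0.0916), and with the mean log2 level of the forebrain neuron genes as a covariate it was −1.22 (adjusted p = 0.00828). Rab21 and Rab22a were at −0.10 and −0.20.

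Of 10 genes for late endosomes, lysosomes and related organelles, 7 were tested, 1 of them higher and 1 lower, with a median of 0.42. Rab12 (ENSMUSG00000023460, chr17:66494512-66519729), which sends transferrin receptor to lysosomes, measured 31.9, 23.8, 15.4, 34.4 and 26.9 cpm in GUCY2C hi and 9.27, 2.73, 9.94, 6.53 and 4.71 cpm in GUCY2C med libraries. All 5 GUCY2C hi values were above all GUCY2C med values, most narrowly in mouse 12 (log2 fold change 1.99 ± 0.35, edgeR adjusted p = 0.00143). Rab29 (ENSMUSG00000026433, chr1:131867224-131872887), which recruits the kinase LRRK2 to the Golgi and lysosomes, measured 12.2, 5.19, 11.4, 7.71 and 8.44 cpm against 15.8, 20.7, 17.2, 18.2 and 17.6 cpm. The groups were separate, but its log2 fold change of −0.996 ± 0.23 was near the threshold (edgeR adjusted p = 0.00635). The call held in 2 of 10 fits that each left out 1 library, when mouse 2 or 12 lacked its GUCY2C hi library. In the other 8 the adjusted p was 0.0105 to 0.0180, and it was 0.0233 with the mouse as a block.

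Rab7, the main Rab of late endosomes, was at 0.42 (edgeR adjusted p = 0.0799) and Rab32, of lysosome-related organelles, at 0.73 (adjusted p = 0.0200, and 0.00414 with the forebrain covariate). Rab9, which returns receptors from late endosomes to the Golgi, was at −0.38, and its groups did not overlap (edgeR adjusted p = 0.0573). Rab24 was at −0.34 and Rab9b at 0.65. Rab7b, Rab38 and Rab44 did not pass the filter, with at most 5, 2 and 8 counts in any GUCY2C hi library and at most 2, 5 and 0 in any GUCY2C med library.

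Of 15 genes for the ER, the Golgi apparatus and transport between them, 4 were higher and 0 lower by edgeR, while DESeq2 called 5 higher and 1 lower and 3 had an unadjusted edgeR p under 0.05 in the lower direction. The median log2 fold change was −0.10. Rab36 (ENSMUSG00000020175, chr10:75037058-75054748), a Golgi Rab, measured 16.5, 17.7, 8.02, 19.2 and 7.18 cpm in GUCY2C hi and 0.749, 0.0803, 1.44, 1.58 and 1.37 cpm in GUCY2C med libraries. The GUCY2C hi libraries of mice 12 and 15 were the lowest of their group and still above all GUCY2C med libraries (log2 fold change 3.70 ± 0.56, edgeR adjusted p = 6.32e-04). Rab33b (ENSMUSG00000027739, chr3:51483920-51496232), which acts at the Golgi and in autophagy, measured 44.2, 47.5, 35.1, 56.7 and 29.5 cpm in GUCY2C hi and 20.035, 14.9, 13.3, 16.6 and 22.4 cpm in GUCY2C med libraries. The log2 fold change of Rab33b was 1.29 ± 0.22 (edgeR adjusted p = 0.00117).

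Rab39b (ENSMUSG00000031202, chrX:75572046-75578231), a mainly neuronal Golgi Rab, measured 9.48, 7.05, 4.84, 10.2 and 6.11 cpm in GUCY2C hi and 2.90, 0.241, 2.09, 2.03 and 1.11 cpm in GUCY2C med libraries. All values were low, with the GUCY2C med library of mouse 7 the lowest. Its log2 fold change was 2.17 ± 0.50 (edgeR adjusted p = 0.00612). The call was lost with the mouse as a block (adjusted p = 0.0143) and without mice 12 and 15 (0.0365, at a log2 fold change of 2.37). It was also lost in 6 of 10 fits that left out 1 library (0.0121 to 0.0190). These lacked the GUCY2C hi library of mouse 2, 7 or 14 or the GUCY2C med library of mouse 12, 14 or 15. Rab39 (ENSMUSG00000055069, chr9:53684110-53706232) measured 0.269, 0.663, 1.21, 0.771 and 0.315 cpm in GUCY2C hi libraries, at most 16 counts. In GUCY2C med libraries it was at 0 in 4 and at 0.150 cpm in mouse 14, so its fold is a lower bound of at least 2.65-fold, set against 3 counts in each GUCY2C med library. The edgeR adjusted p of Rab39 was 0.00597, and 0.0179 with the mouse as a block. It held in 3 of the 7 fits without 1 library that could test it, and was 0.0126 to 0.0165 without the GUCY2C med library of mouse 2, 7, 12 or 15. The fitted log2 fold change of Rab39 in the plot, 3.99, depends on the prior count of the fit, and the medians given here were the same with the gene at its bound. Rab39 overlaps the pseudogene Rps6-ps3 on the same strand.

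Rab2b measured 2.82, 3.14, 1.97, 5.24 and 3.02 cpm in GUCY2C hi and 1.69, 1.12, 1.15, 1.502 and 1.198 cpm in GUCY2C med libraries. The groups did not overlap, and its log2 fold change of 1.28 ± 0.33 missed the threshold (edgeR adjusted p = 0.0109). Its adjusted p was 0.0012 by DESeq2, 0.0078 by edgeR with the forebrain covariate and 0.0078 when mouse 12 lacked its GUCY2C hi library. The gene overlaps Tox4, a gene of far higher counts, on the opposite strand. Rab1a and Rab1b, which carry cargo from the ER to the Golgi, were at −0.71 (edgeR adjusted p = 0.0284) and −0.35, and Rab1a did not overlap between groups. Rab2a, of the same step, was at 0.46, and Rab6a, of retrograde Golgi traffic, at −0.55 (edgeR adjusted p = 0.0239). Rab19, whose groups did not overlap, was at −0.64 (edgeR adjusted p = 0.0220). Rab18, which works at the ER and lipid droplets, was at −0.19, Rab30 at −0.38 and Rab43 at −0.16. Rab6b and Rab33a, at 0.02 and −0.10, had standard errors above 1.

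Of the 3 cilium Rabs 1 was higher. Rab23 (ENSMUSG00000004768, chr1:33719887-33742564), an inhibitor of Hedgehog signaling, measured 15.4, 9.29, 6.06, 16.0 and 5.35 cpm in GUCY2C hi and 2.43, 1.93, 2.74, 2.70 and 1.45 cpm in GUCY2C med libraries. No library broke the order of the groups (log2 fold change 2.20 ± 0.37, edgeR adjusted p = 0.00113). Rab34 measured 1.95, 0.603, 1.36, 0.848 and 1.01 cpm in GUCY2C hi and 1.03, 0.0803, 0.360, 0.150 and 0.0856 cpm in GUCY2C med libraries. The GUCY2C med library of mouse 2 overlapped the other group (log2 fold change 1.76 ± 0.69, edgeR adjusted p = 0.0615), and without that library the adjusted p was 0.0084. Rab28 was at 0.37 (edgeR adjusted p = 0.0596). The remaining genes, Rab40b, Rab40c and Rab42, were at 0.65, 0.20 and −0.40, and none of these 3 was called by edgeR, DESeq2 or limma-voom.

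By level, the change was set on a family dominated by other members. Per length, the 6 most abundant Rabs of GUCY2C hi cells were Rab11a with 333 ± 28.2 FPKM, Rab1a with 239 ± 67.0, Rab2a with 224 ± 53.7, Rab1b with 160 ± 16.3, Rab14 with 160 ± 17.0 and Rab7 with 157 ± 32.1 FPKM (SD, n = 5). In GUCY2C med cells their levels were 278 ± 27.4, 322 ± 34.3, 134 ± 29.6, 167 ± 12.5, 110 ± 9.87 and 96.9 ± 12.7 FPKM. None of these 6 was called by edgeR, by DESeq2 or by limma-voom without a block. With the block in limma-voom Rab1a was called lower (adjusted p = 0.00998). The FPKM carry no TMM factors, which were 0.990 to 1.26 in GUCY2C hi and 0.821 to 0.980 in GUCY2C med libraries. Set between groups, FPKM therefore read higher for GUCY2C hi than the fitted changes, such as −0.01 for Rab11a. Rab8a stood at 154 ± 44.1 against 284 ± 31.9 FPKM, at rank 2 in the GUCY2C med group and rank 7 in the GUCY2C hi group. Rab3d rose from rank 25 at 15.32 ± 2.90 FPKM to rank 9 at 127 ± 47.9 FPKM. Rab15 went from rank 22 at 17.97 ± 2.70 FPKM to rank 11 at 90.1 ± 31.9 FPKM. Neighbours in these orders such as Rab1b, Rab14 and Rab7 in GUCY2C hi cells did not differ beyond their spread.

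The higher Rab genes differed in how high their level in GUCY2C med libraries was beside that in GUCY2C hi libraries. Mean GUCY2C med levels in cpm were 3.50% of the mean GUCY2C hi level for Rab3b (single libraries 1.36% to 6.36%). Levels were 4.56% for Rab37 and 7.60% for Rab36 (0.585% to 11.5%). They were 12.1% for Rab3c (1.21% to 19.3%), 14.6% for Rab3d, 21.6% for Rab23 and 24.2% for Rab15. Rab27a and Rab33b stood highest, at 38.0% (26.9% to 64.3%) and 41.0% (31.1% to 52.6%). The summed enteroendocrine markers of the same libraries stood at 0.309% (0.125% to 0.404%), below the lowest of these values.

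A few Rab genes with a wide spread were high and low in the same libraries as the forebrain neuron list. The mean log2 level of the 18 genes was 2.10, 4.62, 4.32, 2.13 and 5.72 in GUCY2C hi and 4.61, 0.68, 4.84, 4.50 and 3.69 in GUCY2C med libraries. It was low in the GUCY2C hi libraries of mice 2 and 14 and the GUCY2C med library of mouse 7. Rab6b, the neuronal form of Rab6, measured 0.471, 16.5, 14.6, 1.002 and 50.0 cpm in GUCY2C hi and 19.1, 0.642, 25.9, 23.9 and 12.1 cpm in GUCY2C med libraries. Its 3 lowest and its highest libraries were those of the list. Rab33a measured 0.134, 4.16, 3.56, 0 and 12.3 cpm against 7.30, 0.241, 6.55, 5.03 and 2.57 cpm. Rab26 measured 1.01, 3.62, 3.86, 0.848 and 12.8 cpm against 3.93, 0.0803, 7.13, 6.08 and 2.31 cpm. Both were low in the same 3 libraries as the list, as were Rab9b and, within each group, Rab40b. For Rab3a the highest and the lowest library were also those of the list, and with the covariate its log2 fold change was 0.94 (edgeR adjusted p = 0.00675). In GUCY2C med libraries Rab3c and Rab12 rose in the order of the list. They ran from 1.36 and 2.73 cpm in mouse 7 to 21.8 and 9.94 cpm in mouse 12. Among GUCY2C hi libraries both were highest in mouse 14, where the list was low. With the covariate all 17 calls were kept and 16 Rab genes were higher and 6 lower. From which cells the RNA of the listed forebrain neuron genes came was not tested.

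**Figure D4:**
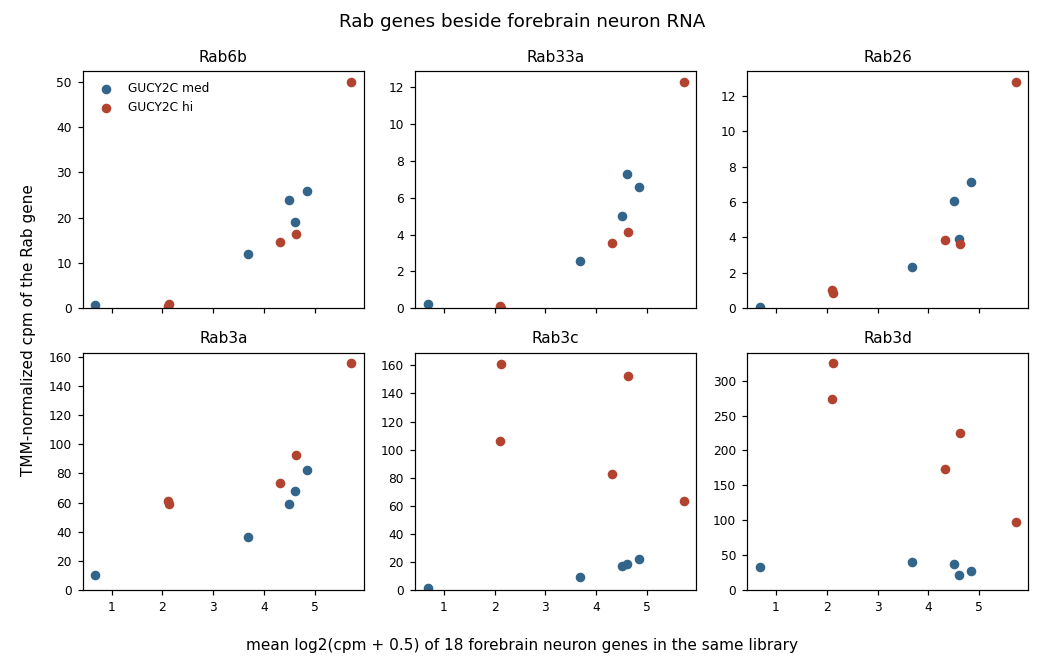
TMM-normalized cpm of 6 Rab genes (vertical) against the mean log2 of cpm plus 0.5 of 18 forebrain neuron genes (horizontal), 1 point per library, GUCY2C med in blue and GUCY2C hi in red. Rab6b, Rab33a and Rab26 rise along the horizontal axis in both groups, while Rab3c and Rab3d separate by group at equal values of the list. Rab3c also rises along it among GUCY2C med libraries.

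Of 134 regulators and effectors of Rab proteins listed, 131 were tested, 16 (12.2%) were higher and 12 (9.16%) lower, beside 13.9% and 8.79% of all genes. Among effectors of Rab3 and Rab27, 2 of 14 were higher and 0 lower by edgeR, 1 was lower by DESeq2, and 2 had an unadjusted edgeR p under 0.05 in that direction. Rph3al, also called Noc2, binds Rab3 and Rab27 on dense-core granules and rose the most, with 89.2, 150, 77.4, 108 and 35.7 cpm in GUCY2C hi and 5.90, 6.58, 6.12, 9.09 and 7.45 cpm in GUCY2C med libraries. The groups were far apart (log2 fold change 3.71 ± 0.34, edgeR adjusted p = 2.47e-05). Sytl5, a synaptotagmin-like Rab27 effector, was at 3.45 ± 0.78 with 2.23 ± 1.07 against 0.1999 ± 0.211 cpm (adjusted p = 0.00546, and 0.0313 with the block).

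Rabggta, a subunit of the transferase that attaches the lipid groups, was lower at −0.58 ± 0.14 (adjusted p = 0.00823, and 0.0285 with the block). Of 35 GTPase-activating proteins, a list without Rab3gap2, 6 were higher and 0 lower by edgeR. By DESeq2 1 was lower, and 7 had an unadjusted edgeR p under 0.05 in that direction. The 5 largest were Tbc1d16 at 3.37, Tbc1d8 at 2.17, Sgsm1 at 2.02, Tbc1d30 at 1.56 and Sgsm3 at 1.31. With the block Tbc1d16, Tbc1d8 and Tbc1d30 kept an adjusted p under the threshold by edgeR, and Sgsm1 (0.0109) and Sgsm3 (0.0141) did not.

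Among 28 tested exchange factors 2 were higher and 5 lower. Madd, the exchange factor of Rab3 and Rab27, was at 1.31 ± 0.29 with 16.1 ± 2.24 against 6.52 ± 2.67 cpm (edgeR adjusted p = 0.00464, and 0.0137 with the block). Dennd4a was at 1.59 (adjusted p = 0.00928, and 0.0250 with the block). Dennd2d at −1.34, Dennd5b at −1.23 and Rab3gap2 at −1.03 were lower, and all 3 passed with the block. Rab3gap2 was listed here for the action of its complex on Rab18, but that complex is also a GTPase-activating protein of Rab3. The count of lower GTPase-activating proteins leaves it out. Hps1, of the exchange factor for Rab32 and Rab38, was at −0.76 (adjusted p = 0.0051, and 0.0125 with the block).

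Effectors of recycling and apical delivery had 4 lower genes and 1 higher gene among 16 tested. Myo5b, the motor that carries Rab11 and Rab8 vesicles to the brush border, measured 29.8, 21.5, 34.6, 14.7 and 70.5 cpm in GUCY2C hi and 216, 88.3, 83.5, 132 and 148 cpm in GUCY2C med libraries. It did not overlap between groups, although the GUCY2C hi library of mouse 15 came near (log2 fold change −1.96 ± 0.41, edgeR adjusted p = 0.00377). Rab11fip3 was at −1.95, Ehbp1l1, an effector of Rab8, at −1.74 and Rab11fip1 at −1.07 (adjusted p = 0.00689, and 0.0160 with the block). Ocrl, an inositol phosphatase that binds many Rab proteins, was higher at 2.68 ± 0.33 (adjusted p = 1.6e-04).

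Rilp, which couples Rab7 to dynein, and its relative Rilpl2 were lower at −2.29 and −1.09, 2 of 9 late endosome effectors. Of 8 early endosome effectors, Appl1 and Rabep1, both of Rab5, were higher at 1.03 and 0.74 (adjusted p = 0.0127 and 0.0165 with the block). Of 13 Golgi effectors, Bicd1 and Bicdl1, adaptors between Rab6 vesicles and dynein, were higher at 2.60 and 2.12 (Bicdl1 adjusted p = 0.0231 with the block). Of the 28 called, 12 were called in all 10 fits that left out 1 library, among them Appl1, Bicd1, Bicdl1, Ocrl, Rab3gap2, Rilp, Rph3al, Sgsm1, Tbc1d16 and Tbc1d8. These fits held 9 to 17 higher and 4 to 10 lower regulators and effectors, with the fewest higher when mouse 14 lacked its GUCY2C hi library and the fewest lower when mouse 15 lacked its GUCY2C med library.

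**Figure D5:**
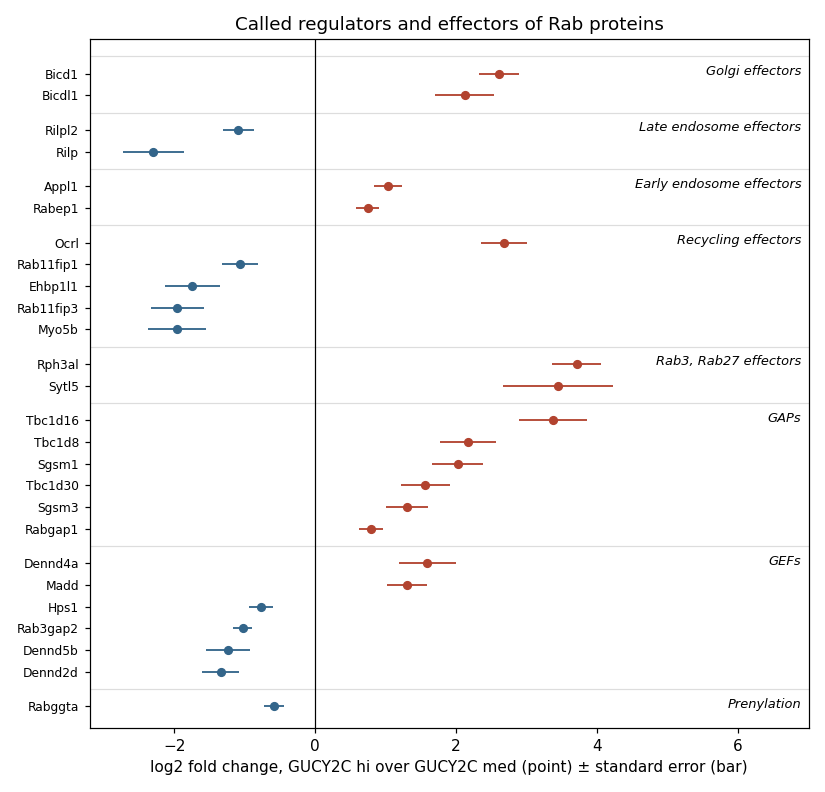
Log2 fold change, GUCY2C hi over GUCY2C med, of 26 called regulators and effectors of Rab proteins, with the point for the estimate and the bar for its standard error, grouped by list. All 6 called genes of the list of GTPase-activating proteins, which leaves out Rab3gap2, lie above 0. Below 0 lie 4 of the 5 called recycling effectors.

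The bases upstream of called genes were searched for short motifs, which were chosen with values in view. RefSeq windows (GRCm38.p6) were at hand for 48 of the 59 members, 11 of them called higher and 4 called lower. The motif GGGCGG, the core of a GC box, was found on either strand in the 250 bases before the start of 10 of the 11 genes called higher and 1 of the 4 called lower. It was found for 75.0% of the 48 Rab genes, 62.46% of 10892 tested protein-coding genes and 35.36% of all 27025 genes with a window. A gene with several windows counted if any of them held a match. The E-box CAGCTG was in 4 of 11 higher and 1 of 4 lower genes, and in 14.84% of tested genes. The E-box CAGATG was in 2 of 11 and 0 of 4, and in 12.08% of tested genes. GATAAG was in 0 of 11 and 0 of 4 (6.03% of tested genes), and AGGTCA in 1 of 11 and 0 of 4 (13.30%). A palindrome such as CAGCTG reads the same on both strands and was counted once, and overlapping matches were counted apart.

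The table of windows held the 100 bases just before the gene for 8 higher and 3 lower genes, and GGGCGG was in 6 of the 8 and 1 of the 3. For 5 higher and 3 lower genes these bases are shown on the gene's strand, with and without a match in each direction. Capitals mark GGGCGG or its reverse complement CCGCCC. The windows are chr4:108878963-108879062 (plus strand) for Rab3b, chr9:21918193-21918292 (minus) for Rab3d, chr1:33719787-33719886 (plus) for Rab23, chr17:66519730-66519829 (minus) for Rab12, chrX:75578232-75578331 (minus) for Rab39b, chr8:11478711-11478810 (minus) for Rab20, chr1:131867124-131867223 (plus) for Rab29 and chr8:72161100-72161199 (plus) for Rab8a.
Rab3b: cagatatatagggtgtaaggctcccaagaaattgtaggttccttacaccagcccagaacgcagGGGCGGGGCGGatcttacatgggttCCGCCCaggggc
Rab3d: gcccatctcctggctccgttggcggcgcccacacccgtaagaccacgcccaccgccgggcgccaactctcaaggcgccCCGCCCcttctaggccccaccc
Rab23: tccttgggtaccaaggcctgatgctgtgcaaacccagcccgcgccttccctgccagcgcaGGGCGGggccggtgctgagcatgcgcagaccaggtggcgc
Rab12: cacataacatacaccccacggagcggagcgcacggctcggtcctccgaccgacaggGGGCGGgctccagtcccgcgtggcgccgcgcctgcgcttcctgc
Rab39b: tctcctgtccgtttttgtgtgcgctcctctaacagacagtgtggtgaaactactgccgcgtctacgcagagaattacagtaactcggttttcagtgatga
Rab20: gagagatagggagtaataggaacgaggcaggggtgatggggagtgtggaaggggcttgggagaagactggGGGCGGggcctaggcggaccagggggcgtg
Rab29: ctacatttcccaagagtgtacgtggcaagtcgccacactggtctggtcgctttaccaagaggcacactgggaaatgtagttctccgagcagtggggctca
Rab8a: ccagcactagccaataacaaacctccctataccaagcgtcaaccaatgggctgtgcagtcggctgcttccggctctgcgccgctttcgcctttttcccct
Rab3b holds 3 matches in these bases, Rab3d, Rab23, Rab12 and Rab20 hold 1 each, and Rab39b, Rab29 and Rab8a hold 0. G and C made up 57.0% of the bases shown for Rab3b, 70.0% to 74.0% for Rab3d, Rab23 and Rab12 and 48.0% for Rab39b, and 65.0%, 54.0% and 57.0% for Rab20, Rab29 and Rab8a. A match describes the letters of the window and not a bound site.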

How the data were processed

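GUCY2C hi cells and GUCY2C med cells were profiled by RNA sequencing in 10 libraries, 5 per group, grouped by the sample labels. The authors deposited unnormalized read counts, made by the company that sequenced the libraries from paired-end reads mapped with STAR. The STAR version, the counting tool and the strand setting are not given in the sources used here. The FPKM values, as deposited by the authors, are counts per length and depth. Most Rab genes were divided by less than their listed length (median ratio 0.528 over 51 genes). Others, such as Rab18 and Rab2a, were divided by that length. The authors' comparison columns (log2 fold changes, p-values and scores, made per the labels with limma 3.40.6 and edgeR 3.26.8) were not used. The labels name mm9, but 59 of 59 Rab positions overlap those of GRCm38 and 5 of 59 those of NCBIM37, so GRCm38 is given.

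The main test was the quasi-likelihood test of edgeR 4.0.16 with TMM factors and no block, run in R 4.3.3, with limma 3.58.1 and DESeq2 1.42.0 as alternatives. Tables were made with Python 3.11.15 (numpy 2.4.6, pandas 2.3.3), and plots with matplotlib 3.10.9. Genes over 0.5 cpm in at least 3 libraries were kept. A gene was called at a Benjamini-Hochberg adjusted p under 0.01 over all genes kept. The scripts were tested on simulated data. Called members and uncalled members changed over 2-fold are given by library, the others within lists. Of regulators, at most the 5 largest called changes per list are given, beyond which Rab3gap2 and Hps1 were named after their values were seen. Members and lists were chosen with earlier results of these data known. The design states that each mouse was sorted into both groups, so equal numbers were taken as pairs, yet deviations of paired libraries from their group means correlated at only −0.0744, −0.173, 0.27, −0.101 and 0.0505 for mice 2, 7, 12, 14 and 15. The alternatives were limma-voom, DESeq2, a replicate block in edgeR and limma-voom, RLE factors, library size only, a filter of 10 counts in every library or none, a threshold of 0.05, the forebrain covariate, mice 12 and 15 left out, each library left out, and, for shares of a subfamily, cpm per kilobase. Bounds against 3 counts cover counting error only. Protein sequences were not used here. A few of the genes tested are not reported here.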

Additional observations from a re-analysis of the deposited data

Results flagged for a closer look

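Rab27a in the GUCY2C med group had 1 library far from the others. The library of mouse 15 measured 14.8 cpm, the next highest 8.15 cpm and the lowest 6.19 cpm, so that the gap made up 0.773 of the whole range. It was the only one of 42 groups of libraries, from 21 named Rab genes, that passed Dixon's limit, and chance passes about 1 in 20. The GUCY2C med library of mouse 15 also had the highest goblet sum (13118 cpm) and Paneth sum (15358 cpm) of its group. What part such cells have was not tested.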

How the results depend on the processing

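No call of a Rab gene changed direction under any alternative run. With the replicate block in edgeR, 8 Rab genes were higher and 2 lower, 7 and 9 regulators and effectors, and 1294 and 779 of all genes. At an adjusted p under 0.05, 7 Rab genes were lower, 26 regulators and effectors higher and 22 lower, and 3367 and 2767 of all genes. With library size only, 4 regulators and effectors and 557 of all genes were lower, and DESeq2 called 2235 of all genes lower. When each library in turn was omitted (leave-one-out), there were 10 to 14 higher and 2 to 4 lower Rab genes, 9 to 17 higher and 4 to 10 lower regulators and effectors, and 1636 to 2534 higher and 512 to 1609 lower of all genes. Of the 17 called Rab genes, 12 were called in all 10 of these fits. DESeq2 added Rab13, Rab19, Rab2b and Rab32. Rab36, Rab39 and Rab39b were removed by the filter of 10 counts in every library. Of the mean shares of a subfamily, 26 moved by more than 1 SD and 26 did not when cpm per kilobase replaced FPKM. The causes were not tested. In genes of low count, such as Rab4b, Rab34 and Rab42, the log2 fold changes had standard errors of 0.82, 0.69 and 0.62.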
